A study of Homo sapiens with 6 samples.

Results

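MAGI2, PTPRZ1, CNTNAP2, DPP6, GRM8, THSD7A, AUTS2 and DYNC1I1 are 8 long protein-coding genes of human chromosome 7, most of them best known from neurons, glia and synapses. They are 8 of the 19974 protein-coding genes placed on chromosomes 1 to 22 and X, and were chosen by name, from peak lists in which several of them had already been seen to hold fewer peaks in knockout cells. Peak numbers in them are therefore given as a description, without a test. They were described across ACHN cells, a human renal carcinoma line, in which the ZCCHC8 gene was knocked out (ZCCHC8-KO) or intact (ZCCHC8-WT). The knockout labels name a guide RNA, and the number of clones and the control guide are not stated there. Chromatin was precipitated with antibodies against H3K27me3 or EZH2 and sequenced as read pairs, with 1 library per antibody and genotype. The names of the deposited peaks set each library against the input library of its genotype, and the inputs were not analysed here. No difference below has a replicate check. Intervals are exact 95% Clopper-Pearson intervals, which cover counting error only, and no read depth was stated for any list.

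H3K27me3, trimethylation of lysine 27 on histone H3, is written by Polycomb repressive complex 2, in which EZH2 is the catalytic subunit, and marks genes kept silent in a given cell type. The complex is recruited preferentially to CpG-rich starts of silent developmental genes, and the mark can spread from there over broad stretches. Large neural genes are commonly silent outside the nervous system. ZCCHC8 is the scaffold of the nuclear exosome targeting complex, NEXT, which hands short-lived nuclear RNA to the exosome for decay. RNA was not analysed here, so whether any of these genes was transcribed in ACHN cells was not measured.

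Peaks were fewer in the KO lists over the whole of chromosome 7, more so than elsewhere. The KO and WT lists of H3K27me3 held 69840 and 93095 peaks, and those of EZH2 held 19566 and 30734. On chromosome 7 the KO/WT ratio of peak number was 0.400 (0.386 to 0.413) for H3K27me3 and 0.382 (0.360 to 0.405) for EZH2, against 0.803 and 0.674 on the other chromosomes. Chromosome 7 held 7.01% of KO and 13.2% of WT H3K27me3 peaks, and 7.73% of KO and 12.9% of WT EZH2 peaks. The part of this chromosome-wide difference in the values of single genes was not tested, and the input reads were not analysed here, so ratios on chromosome 7 are not corrected for it. The lowest score listed, a value the authors gave each peak, was 4 in KO and 5 in WT.

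Together the 8 genes span 7.88 Mb. A peak was counted in a gene when its midpoint lay inside it. The KO list held 168 H3K27me3 peaks in them and the WT list 1067, a ratio of 0.157 (0.133 to 0.185). That is 21.3 peaks per Mb in KO and 135 in WT. EZH2 peaks numbered 49 in KO and 251 in WT, a ratio of 0.195 (0.141 to 0.266), or 6.21 and 31.8 per Mb. H3K27me3 peaks covered 51991 bp in KO and 445681 bp in WT, and EZH2 peaks 12696 and 65935 bp. The genes were not alike in this. The H3K27me3 intervals of DYNC1I1, CNTNAP2, PTPRZ1, AUTS2 and DPP6 held the chromosome 7 ratio of 0.400. Those of MAGI2, THSD7A and GRM8 lay below it. The low ratio of the sum is therefore not read as a trait of all 8. The H3K27me3 ratio was 0.243 without MAGI2, 0.295 when peaks within 3 kb were stitched into 1, and 0.0385 when scores below 7 were left out. The EZH2 ratio was 0.293 when the WT list was cut to the length of the KO list by score, and 0.0351 when scores below 7 were left out. On other chromosomes, this score cut kept 28.4% of KO and 68.2% of WT H3K27me3 peaks. For EZH2 it kept 21.2% and 64.2% there. The cut thus lowers KO/WT ratios outside these genes too, and the 2 ratios after it are not read as particular to them.

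The genes were set against other long genes, meaning those of at least 188876 bp, the length of the shortest of the 8. Of the 7 with 10 or more H3K27me3 peaks in both genotypes together, all 7 had a KO/WT ratio of at most 0.5. DPP6 had too few peaks to be counted. This held for 27.2% of all protein-coding genes with 10 or more peaks, for 66.7% of the other long genes of chromosome 7 and for 30.5% of the long genes of other chromosomes. All 8 had an EZH2 ratio of at most 0.5, against 36.4% of all genes, 82.9% of the other long genes of chromosome 7 and 35.4% of long genes elsewhere. Nothing is read from these counts, because the genes were picked with the peak numbers known. Summed over the 89 other long genes of chromosome 7, the H3K27me3 ratio was 0.420 (0.389 to 0.454), with 26.3 peaks per Mb in KO and 62.7 in WT. Over 1408 long genes of other chromosomes it was 0.743 (0.724 to 0.762), with 18.8 peaks per Mb in KO and 25.3 in WT. For EZH2 the ratio was 0.352 (0.308 to 0.401) in the first of these sets and 0.599 (0.572 to 0.627) in the second. The H3K27me3 density of the 8 genes in KO, 21.3 peaks per Mb, thus lay between those of both other sets, while their WT density was above both.

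**Figure D1:**
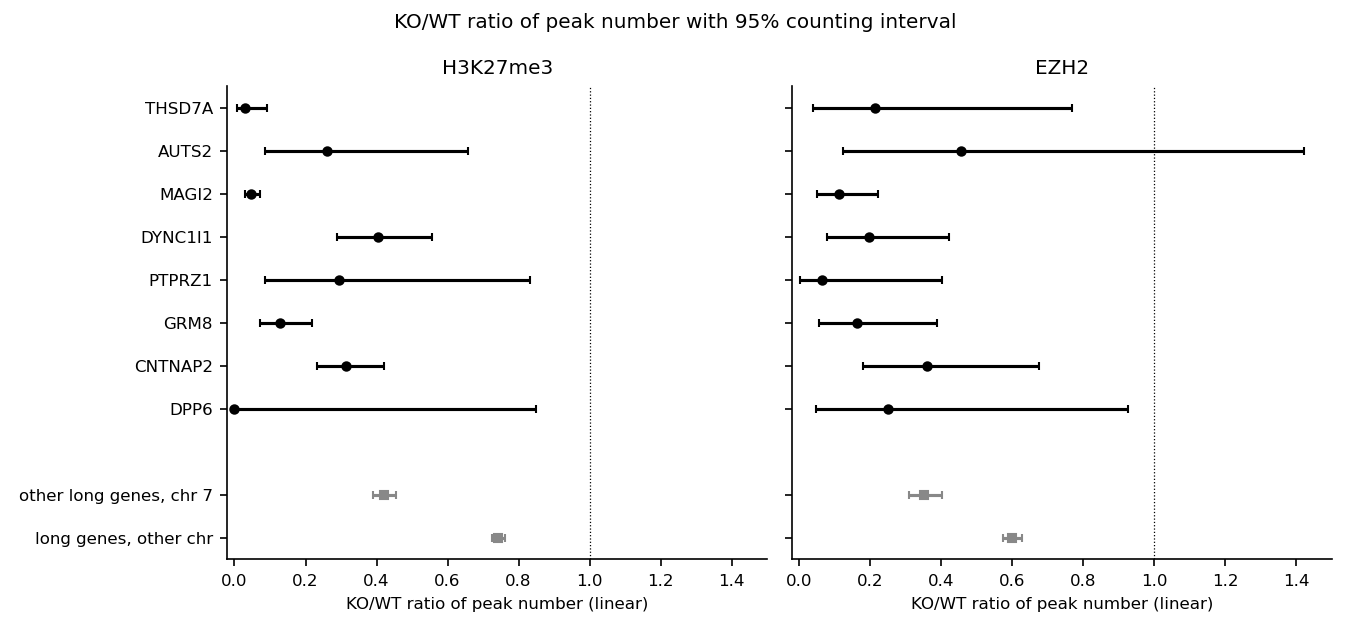
KO/WT ratio of peak number (x axis, linear, 1 meaning equal numbers) for each gene, with H3K27me3 on the left and EZH2 on the right; points are ratios, bars are 95% counting intervals and grey squares are the sums over other long genes. All 16 points lie below 0.5, that of H3K27me3 in DPP6 at 0 because KO had no peak, and the interval of EZH2 in AUTS2 reaches 1.42.

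The genes encode proteins of different kinds, so they are taken by role. MAGI2, a scaffold that holds receptors and adhesion molecules at synapses and at the slit diaphragm of kidney podocytes, held the most H3K27me3 peaks of the 8 in WT. It runs over chr7:78017055-79453667 on the minus strand. It had 22 H3K27me3 peaks in KO and 467 in WT, a ratio of 0.0471 (0.0292 to 0.0722), and they covered 0.390% of the gene in KO and 15.5% in WT. EZH2 peaks numbered 9 in KO and 81 in WT. The WT peaks filled the gene unevenly. In the 287 kb of the gene next to its start there were 0 H3K27me3 peaks in KO and 4 in WT, against 10 and 122 in the 287 kb at its far end and 3 and 155 in the 287 kb before that. The 50-kb bin with the largest deficit, chr7:78467055-78517054, lay 937 to 987 kb inside the gene and held 1 peak in KO and 36 in WT, covering 194 and 22745 bp. The widest WT peak measured 2800 bp at chr7:79118748-79121547, and no KO peak overlapped it. EZH2 was densest in WT in the last 287 kb, with 4 peaks in KO and 35 in WT.

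DYNC1I1 encodes an intermediate chain of the dynein motor, an isoform used mainly in neurons, and the gene holds enhancers of the neighbouring DLX5 and DLX6 genes. It lies on the plus strand at chr7:95772554-96110322. It had the highest WT density of the 8, 39.7 H3K27me3 peaks per 100 kb, and also the highest in KO. The counts were 54 peaks in KO and 134 in WT, a ratio of 0.403 (0.288 to 0.557), and EZH2 had 8 and 41 peaks. The difference was uneven along the gene. Its first 50 kb held 0 H3K27me3 peaks in KO and 26 in WT, while the third bin, at chr7:95872554-95922553, held 19 in KO and 19 in WT. The widest KO peak in any of the 8 genes was here, 1351 bp at chr7:96077163-96078513, of which WT peaks covered 1133 bp.

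THSD7A, a membrane protein with thrombospondin repeats known from endothelium and podocytes, lies on the minus strand at chr7:11370365-11832198. It held 3 H3K27me3 peaks in KO and 99 in WT, a ratio of 0.0303 (0.00614 to 0.0912), and 3 and 14 EZH2 peaks. From its start to chr7:11620365 the KO list held 0 H3K27me3 peaks and the WT list 58. All 10 of its bins held fewer H3K27me3 peaks in KO than in WT.

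CNTNAP2 encodes a neurexin-family adhesion protein that clusters potassium channels on axons. It is the longest of the 8, at chr7:146116801-148420998 on the plus strand. It had 62 H3K27me3 peaks in KO and 197 in WT, a ratio of 0.315 (0.233 to 0.421), and 14 and 39 EZH2 peaks. The stretch chr7:147366801-147516800 held 0 H3K27me3 peaks in KO and 44 in WT. Inside it, the bin chr7:147416801-147466800 held 0 and 27 H3K27me3 peaks but 5 EZH2 peaks in KO and 2 in WT. H3K27me3 peaks were more numerous in KO in 7 of its 47 bins, with the largest excess, 3 in KO and 0 in WT, at chr7:148216801-148266800.

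PTPRZ1, a receptor tyrosine phosphatase of glia and neural progenitors that binds pleiotrophin, lies on the plus strand at chr7:121873161-122062036. It had 5 H3K27me3 peaks in KO and 17 in WT, a ratio of 0.294 (0.0848 to 0.831). Of these, 4 KO peaks and all 17 WT peaks lay in its first 50 kb. EZH2 peaks numbered 1 in KO and 16 in WT, a ratio of 0.0625 (0.00149 to 0.402), and 10 of the WT peaks were in those first 50 kb. The EZH2 interval is wide because the KO list had 1 peak.

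GRM8, a metabotropic glutamate receptor that lowers transmitter release from nerve endings, lies on the minus strand at chr7:126438598-127252941. It held 16 H3K27me3 peaks in KO and 124 in WT, a ratio of 0.129 (0.0715 to 0.218), and 6 and 37 EZH2 peaks. All 17 of its bins had fewer H3K27me3 peaks in KO. The largest deficit was at chr7:126738598-126788597, with 2 peaks in KO and 16 in WT.

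DPP6 and AUTS2 carried few peaks in either genotype. DPP6, an auxiliary subunit of A-type potassium channels, lies on the plus strand at chr7:153748133-154894285. It held 0 H3K27me3 peaks in KO and 6 in WT, and 3 and 12 EZH2 peaks, with no more than 2 peaks of either antibody in any 50-kb bin. AUTS2, a nuclear protein of brain development that joins a variant of Polycomb repressive complex 1, lies on the plus strand at chr7:69598475-70793506. It held 6 H3K27me3 peaks in KO and 23 in WT, a ratio of 0.261 (0.0869 to 0.659). Its EZH2 counts, 5 and 11, gave a ratio of 0.455 with an interval of 0.124 to 1.42. That interval holds both 1 and the chromosome 7 ratio of 0.382, so nothing is read from these counts. Its first 50 kb held 2 EZH2 peaks in KO and 1 in WT.

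**Figure D2:**
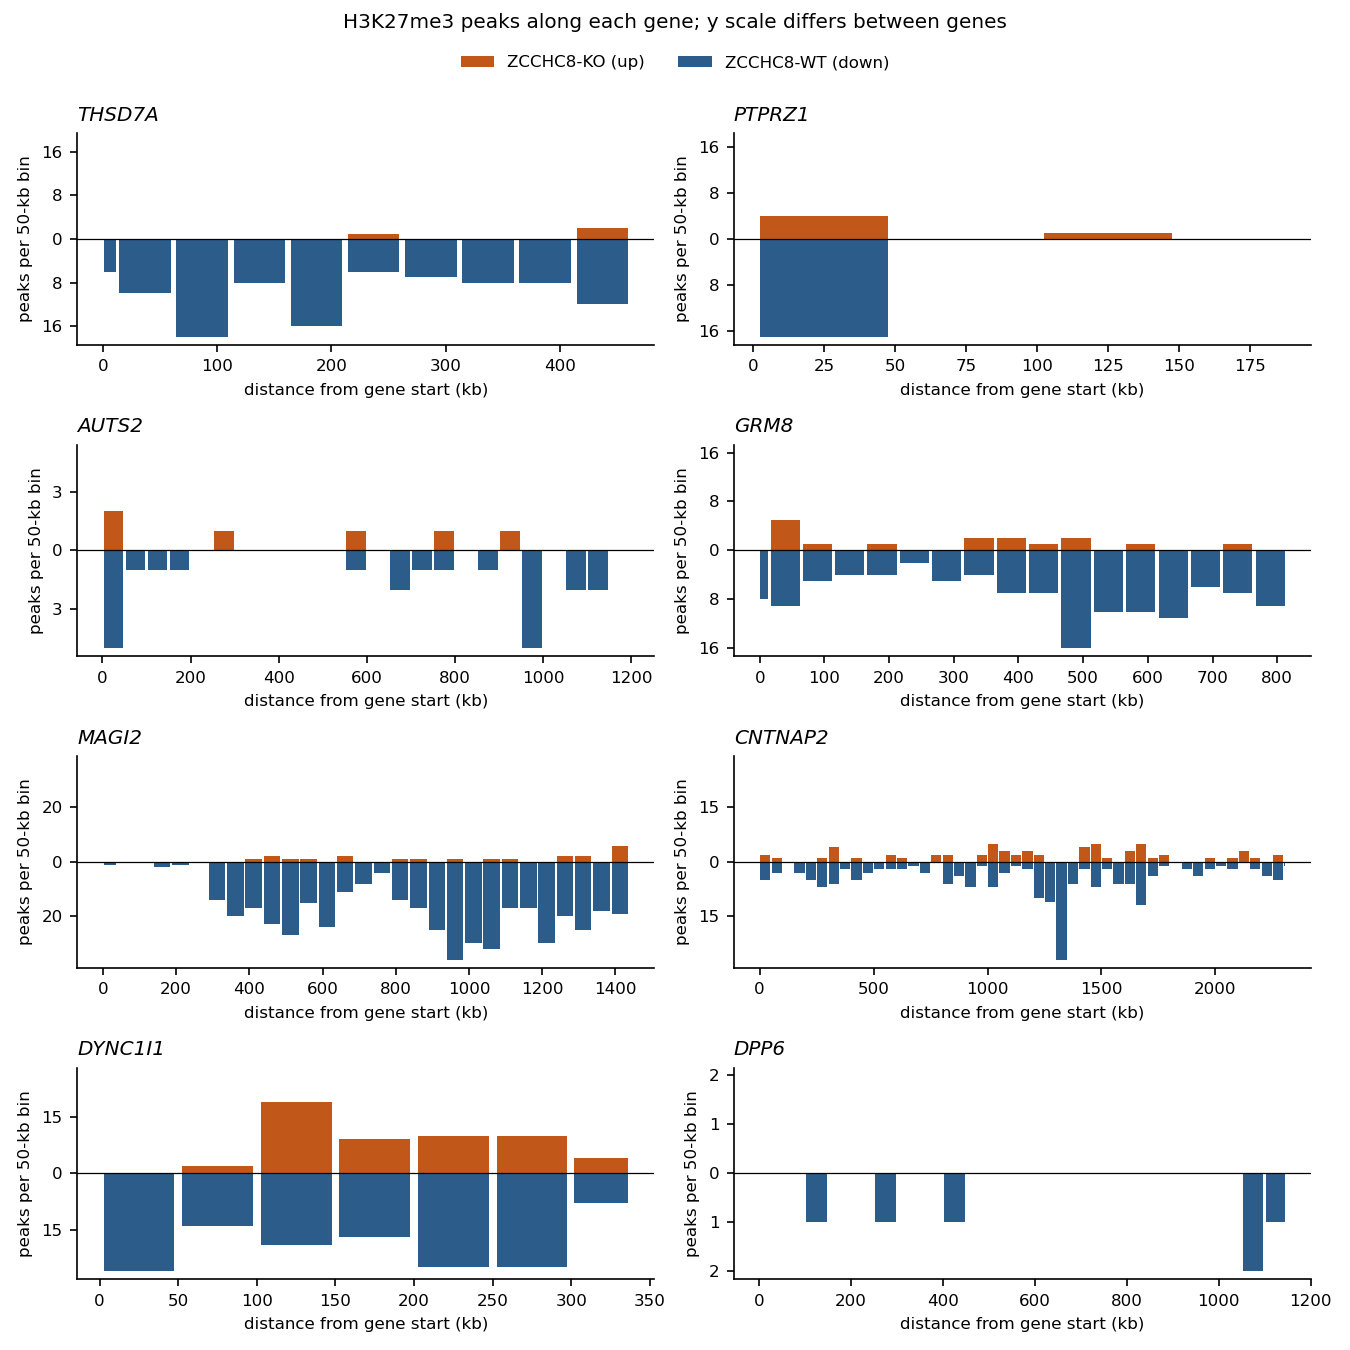
H3K27me3 peaks per 50-kb bin (y axis, KO drawn upward and WT downward, with a scale of its own for each gene) against distance from the gene start in kb (x axis); bins were laid from the lowest coordinate, so the last bin can be shorter. In MAGI2 no KO bar exceeds 6, while the WT bars are low over the 287 kb next to the start and reach 36 farther in.

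**Figure D3:**
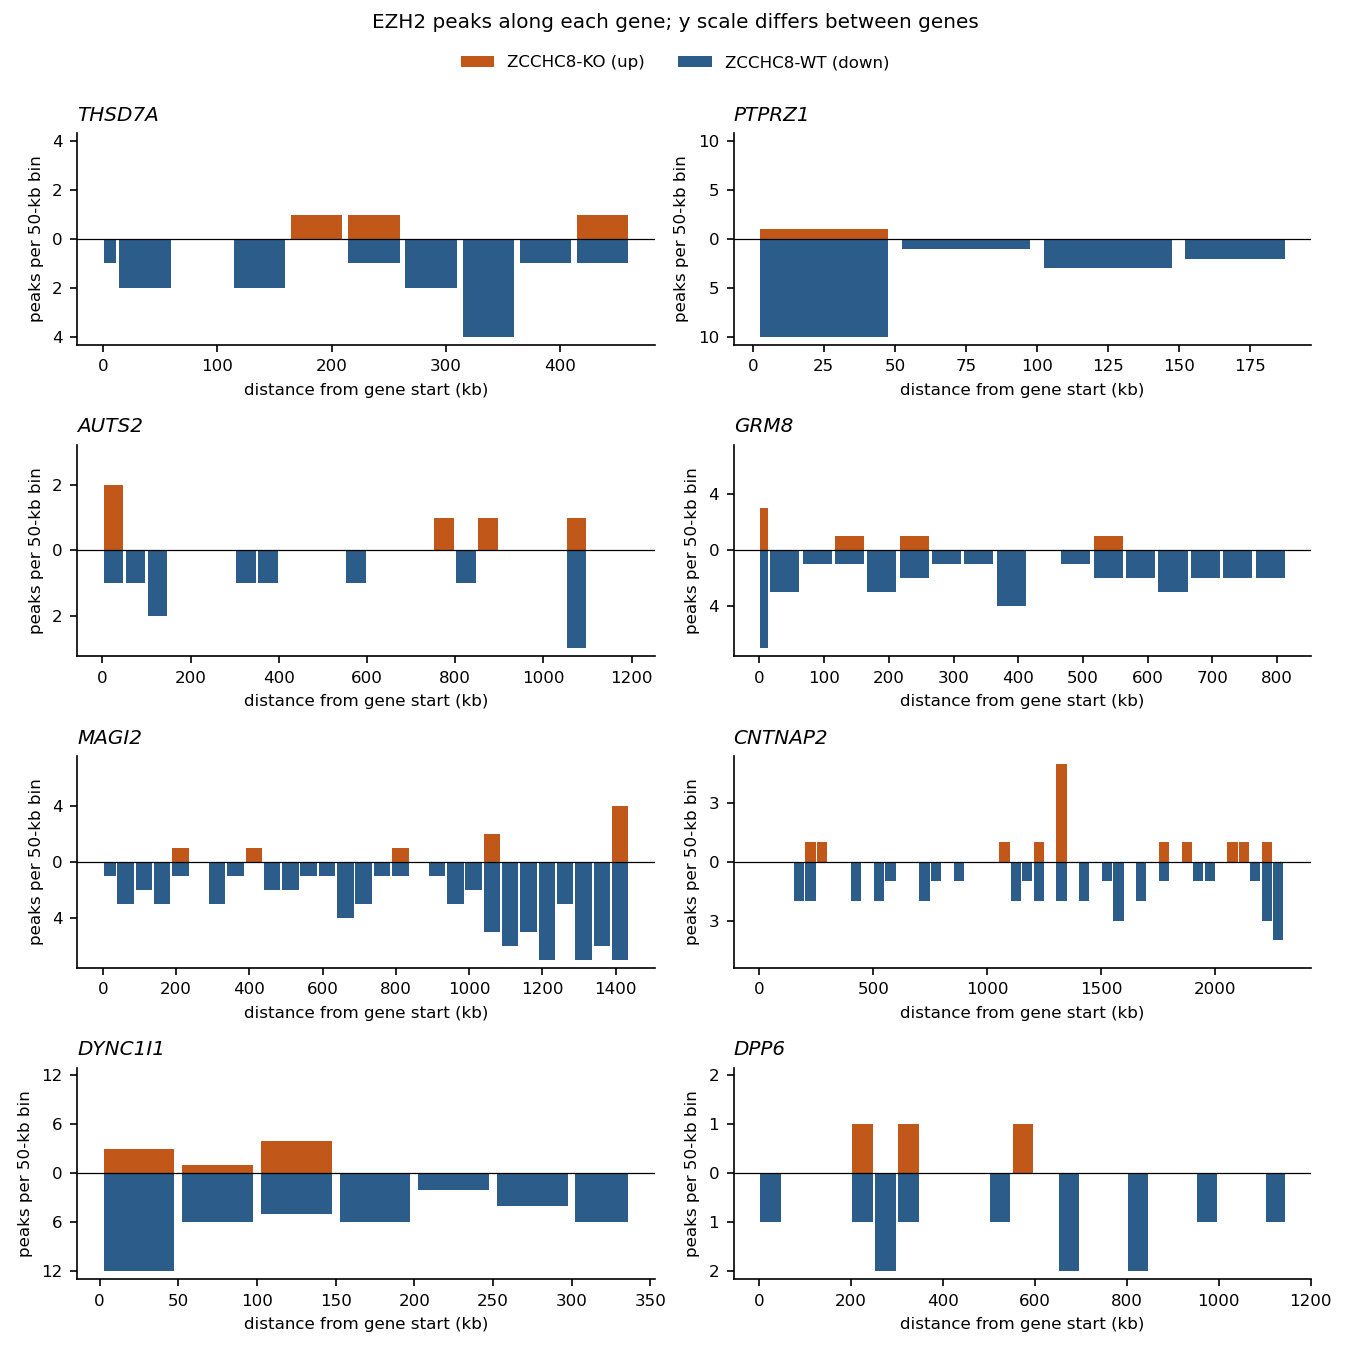
EZH2 peaks per 50-kb bin, drawn as for H3K27me3 (KO upward, WT downward, distance from the gene start in kb, y scale differing between genes). KO bars exceed WT bars in a few bins, the largest being 5 against 2 in CNTNAP2.

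Over all 161 bins of the 8 genes, 111 held fewer H3K27me3 peaks in KO than in WT, 40 held equal numbers, of which 35 were empty in both, and 10 held more. For EZH2 the counts were 90 fewer, 59 equal, of which 51 were empty in both, and 12 more. Bins outside the 8 genes were not counted, and peaks were fewer in KO over the whole of chromosome 7. The bin counts are therefore not read as particular to these genes. At least 1 H3K27me3 peak was present in 64 bins in KO and 121 in WT. At least 1 EZH2 peak was present in 33 bins in KO and 100 in WT. Both antibodies had a peak in 17 bins in KO and 84 in WT, while EZH2 stood without H3K27me3 in 16 bins of either genotype. Cutting each gene into 5 equal segments from its start, the summed H3K27me3 ratio was 0.138, 0.152, 0.202, 0.147 and 0.147. Without MAGI2 it was 0.142, 0.287, 0.286, 0.300 and 0.225. Single genes were less even, and DYNC1I1 had 1 peak in KO and 30 in WT in its first segment but 15 and 23 in its second. The EZH2 ratio was 0.210, 0.278, 0.278, 0.125 and 0.145.

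The promoters of PTPRZ1 and GRM8, which EZH2 peaks overlapped in WT, are shown with those of AUTS2 and MAGI2, which none did. A window of 5 kb on either side of each gene end was used. Around the PTPRZ1 start, H3K27me3 had 5 peaks in KO and 5 in WT, but they covered 16.7% of the window in KO and 59.3% in WT, with a widest peak of 463 and 2538 bp. EZH2 had 0 and 4 peaks there. Around the GRM8 start, H3K27me3 had 0 peaks in KO and 5 in WT. EZH2 had 4 peaks covering 10.3% of that window in KO and 6 covering 38.3% in WT. The highest EZH2 score there was 10 in KO and 21 in WT, the WT peak being 1583 bp wide at chr7:127250123-127251705. Around the AUTS2 start, H3K27me3 had 2 peaks in KO and 1 in WT and covered 4.84% and 5.01%, and EZH2 had 2 and 1 peaks. The MAGI2 start had no peak in any list. The sequences are promoters from RefSeq (GRCh38.p14), 250 bases before to 50 after a transcript start, 5′ to 3′ on the gene's strand, with CG dinucleotides in capitals. That of GRM8, shown because a WT EZH2 peak covers it, belongs to a transcript that starts inside the gene, at position 127252255, while the others are those at the gene's outer start.
PTPRZ1, chr7:121872911-121873210, plus strand: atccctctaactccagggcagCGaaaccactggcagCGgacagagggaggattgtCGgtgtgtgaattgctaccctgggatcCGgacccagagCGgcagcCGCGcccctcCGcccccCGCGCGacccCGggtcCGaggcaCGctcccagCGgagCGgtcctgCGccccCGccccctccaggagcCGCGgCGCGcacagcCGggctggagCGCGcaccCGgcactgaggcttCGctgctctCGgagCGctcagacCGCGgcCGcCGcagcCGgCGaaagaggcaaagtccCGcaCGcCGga
GRM8, chr7:127252206-127252505, minus strand: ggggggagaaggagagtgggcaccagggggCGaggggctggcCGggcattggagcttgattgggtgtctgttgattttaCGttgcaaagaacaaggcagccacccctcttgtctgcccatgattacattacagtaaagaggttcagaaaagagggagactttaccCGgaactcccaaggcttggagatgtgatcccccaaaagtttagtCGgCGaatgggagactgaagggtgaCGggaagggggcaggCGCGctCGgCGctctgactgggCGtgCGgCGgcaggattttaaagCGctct
AUTS2, chr7:69598225-69598524, plus strand: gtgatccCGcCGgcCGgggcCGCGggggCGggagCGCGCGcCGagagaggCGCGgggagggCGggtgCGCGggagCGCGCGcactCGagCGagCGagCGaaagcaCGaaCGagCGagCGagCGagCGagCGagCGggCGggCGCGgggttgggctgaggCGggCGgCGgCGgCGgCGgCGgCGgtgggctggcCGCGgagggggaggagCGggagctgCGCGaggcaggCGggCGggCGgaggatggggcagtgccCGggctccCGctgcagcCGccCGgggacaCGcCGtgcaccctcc
MAGI2, chr7:79453618-79453917, minus strand: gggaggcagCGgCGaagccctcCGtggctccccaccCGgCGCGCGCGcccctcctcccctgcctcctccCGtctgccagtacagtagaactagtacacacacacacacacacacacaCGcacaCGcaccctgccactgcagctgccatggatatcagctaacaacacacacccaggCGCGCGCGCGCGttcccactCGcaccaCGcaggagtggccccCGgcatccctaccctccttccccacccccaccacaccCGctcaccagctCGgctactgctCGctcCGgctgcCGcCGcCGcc

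CG, which reads the same on both strands, was counted in all 35116 promoters of the RefSeq table, and the median promoter held 14. The PTPRZ1 promoter held 38, a number that 9.91% of promoters reached. The GRM8 promoter held 15, reached by 48.9%, the AUTS2 promoter 55, reached by 0.373%, and the MAGI2 promoter 27, reached by 28.2%. GRM8 has 3 more promoters. The one at its outer start held 34 CG, reached by 15.6%, and lay 113 bp from the nearest WT EZH2 peak without overlapping one, another inside the same WT EZH2 peak held 8, and the last held 1. The nearest KO EZH2 peak lay 8733 bp from the PTPRZ1 promoter, while a WT EZH2 peak at chr7:121873176-121873389 covered its last 35 bases. The nearest KO EZH2 peak lay 431 bp from the GRM8 promoter, which was wholly inside a WT EZH2 peak at chr7:127251874-127252716. No promoter of the 8 genes, 14 in all, overlapped a KO EZH2 peak or an H3K27me3 peak of either genotype. The share of all promoters that overlap a peak was not counted, so this number has no background and nothing is read from it. No peak of any list came within 16539 bp of the MAGI2 promoter. The most CG-rich promoter of the 4 shown, that of AUTS2, had its nearest peak, in the KO EZH2 list, 1824 bp away.

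Of the 16 gene ends, 5 had an H3K27me3 peak in KO and 10 in WT, and no end was marked in KO alone. Ends of other genes were not counted, so these numbers have no background. The KO/WT ratio of peak number over the whole of chromosome 7 was 0.400 for H3K27me3 and 0.382 for EZH2. Fewer marked ends in KO are therefore not read as particular to these genes. EZH2 marked 5 ends in KO and 10 in WT, with 4 marked in both and 1 in KO alone. H3K27me3 was found at 3 starts in KO and 6 in WT and at 2 far ends in KO and 4 in WT. Ends of AUTS2 (far end), MAGI2 (start) and DPP6 (both) had no peak in any list. Around the THSD7A start, there was no H3K27me3 peak in KO, where the nearest lay 228797 bp away, while peaks covered 39.8% of the window in WT. At the CNTNAP2 start, H3K27me3 covered 201 bp in KO and 2090 bp in WT. With a window of 2 kb, H3K27me3 marked 2 ends in KO and 6 in WT, and EZH2 marked 3 and 5. When scores below 7 were left out, H3K27me3 and EZH2 marked 1 end each in KO, against 10 and 7 in WT. That cut also removes a larger share of KO than of WT peaks on other chromosomes.

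Peaks were also fewer in KO around most of the genes. Over the 500 kb on either side of the 8 genes, H3K27me3 had 234 peaks in KO and 742 in WT, a ratio of 0.315 (0.271 to 0.366), and EZH2 83 and 236, a ratio of 0.352 (0.270 to 0.453). Upstream of THSD7A the KO list held 3 H3K27me3 peaks and the WT list 101, as sparse as in the gene. Past the far end of DPP6 the counts were close, 42 in KO and 45 in WT for H3K27me3 and 19 and 21 for EZH2. Past the far end of CNTNAP2 they were 34 and 43, with 13 and 10 for EZH2. Around AUTS2 neither genotype had an H3K27me3 peak, and around MAGI2 the counts were 2 in KO and 31 in WT upstream and 1 and 10 past the far end.

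**Figure D4:**
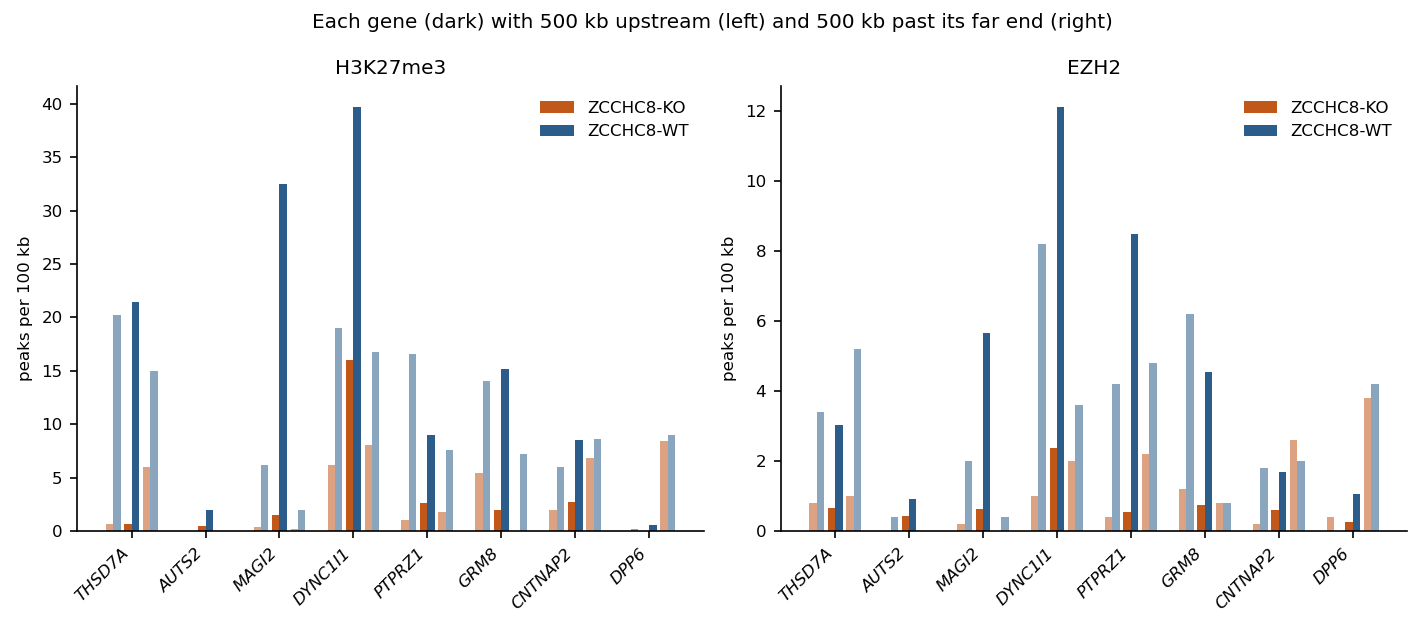
Peaks per 100 kb (y axis, from 0) in each gene (dark bars) and in the 500 kb upstream of its start (pale bars to its left) and past its far end (pale bars to its right), with KO left of WT in each pair, for H3K27me3 and EZH2. MAGI2 has 1.53 H3K27me3 peaks per 100 kb in KO and 32.5 in WT, with lower bars on both sides.

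Most peaks of the 8 genes were listed in 1 genotype only. A WT peak lay under 30.4% (23.5 to 37.9) of the 168 KO H3K27me3 peaks, by at least 1 bp, and a KO peak under 4.78% (3.58 to 6.24) of the 1067 in WT. The KO share was 29.9% in the other long genes of chromosome 7 and 15.8% in long genes elsewhere. The WT share was 11.9% and 11.8% in those sets. No test of these differences was made, and the small number of KO peaks in the 8 genes limits how many WT peaks can be overlapped. The WT share of the 8 genes was 2.16% when at least 50% of a peak had to be covered. DYNC1I1 held most of the shared peaks, with 23.9% of its 134 WT peaks overlapped, while MAGI2 had 2.14% of 467 and GRM8 0 of 124. The exact interval for GRM8 reaches 2.93%. A rougher rule, which takes 3 peaks of 124 as the limit of a count of 0, gives 2.42%. Of EZH2 peaks, 12.2% (4.63 to 24.8) of 49 in KO lay on a WT peak and 1.99% (0.650 to 4.59) of 251 in WT lay on a KO peak. The KO share was 8.03% in the other long genes of chromosome 7 and 5.73% in long genes elsewhere. The WT share was 2.64% and 3.56% in those sets. These shares of other genes lie inside the intervals of the 8 genes, so little sharing of EZH2 peaks was not particular to them.

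Sharing also varied with the score. Of WT H3K27me3 peaks in the 8 genes with a score of 10 or more, 9.54% of 262 overlapped a KO peak, against 25.1% in the other long genes of chromosome 7 and 35.4% on other chromosomes. The share was 2.81% of 569 for scores of 7 to 9, against 9.19% and 16.1%, and 4.24% of 236 for scores of 5 to 6, against 5.82% and 8.47%. No test of these differences was made either. Scores of 7 or more made up 19.0% of KO and 77.9% of WT H3K27me3 peaks in the 8 genes, and 28.4% of KO and 68.2% of WT peaks on other chromosomes. Peaks of 1 kb or wider numbered 3 in KO and 53 in WT. Within a genotype, 10.2% of KO EZH2 peaks (3.40 to 22.2) and 23.9% of WT EZH2 peaks (18.8 to 29.7) lay on an H3K27me3 peak, against 14.4% and 14.1% in the other long genes of chromosome 7. The WT share was 35.8% in MAGI2 and 5.13% in CNTNAP2, of which WT H3K27me3 peaks covered 15.5% and 2.72%. The share to be had from coverage alone was not tested.

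Genes related to these 8 were taken from lists chosen with earlier results known. Of 21 paralogues, 8 had 10 or more H3K27me3 peaks, and 3 of these had a ratio of at most 0.5, beside 27.2% of all genes; their median ratio was 0.834, and that of all genes 0.833. THSD7B, the paralogue of THSD7A, had 67 peaks in KO and 57 in WT, and GRM3, a metabotropic glutamate receptor gene that lies on chromosome 7, had 26 and 63. Of 40 partners and neighbours, 11 had enough peaks and 3 of these had a ratio of at most 0.5, again beside 27.2% of all genes, and the list's median of 0.870 was above that of all genes. The 3 included KCND2, on chromosome 7, a channel that DPP6 modulates, with 1 peak in KO and 128 in WT, and CNTN1, on chromosome 12, a ligand of PTPRZ1, with 1 and 90. Of 33 long neural genes outside chromosome 7, 28 had enough peaks and 10 had such a ratio, with a median of 0.779. DLG2, a synaptic scaffold gene, had 126 peaks in KO and 111 in WT. For EZH2 the counts were 2 of 5 paralogues, 3 of 6 partners and 8 of 21 long neural genes elsewhere, beside 36.4% of all genes.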

How the data were processed

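The submitters' processing notes name cutadapt 1.9.3, Bowtie2 2.2.4 and the build hg38; the peak caller and read depth were not given there. Each of the 4 deposited lists holds peak positions, lengths in bp and the authors' score, whose definition is not given, so the score served only to rank or filter. Identical lines were counted once, and coordinates were read as 1-based.

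Gene positions came from a RefSeq table of GRCh38.p14, strands and promoters from its promoter table. Counts, covered length, overlaps and intervals came from SciPy 1.17.1, pandas 2.3.3 and NumPy 2.4.6 under Python 3.11.15, with matplotlib 3.10.9 for figures. The call of genes at the ratio threshold was checked on copies of the WT lists thinned in randomly chosen genes. The thinning set the outcome, so this checks the code only. Bins, gene ends, overlaps and covered length were not checked in this way. The 8 genes and all lists were chosen with earlier results of these data known. Named were the 8 genes, in each the bins with the largest deficit and excess and the widest peaks, and from each list of related genes those with the most peaks. Alternatives changed score threshold, list length, bin size, window, overlap and stitching, or left out a gene. One gene of these lists is not reported here.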

Additional observations from a re-analysis of the deposited data

How the results depend on the processing

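The H3K27me3 ratio of 0.157 was 0.0385 without scores below 7, 0.192 with the WT list cut to the KO length, 0.117 for covered length and 0.295 with peaks stitched. With 1 gene left out at a time, it was 0.243 without MAGI2, 0.122 without DYNC1I1 and 0.122 without CNTNAP2. The EZH2 ratio of 0.195 was 0.0351 without scores below 7 and 0.293 with the WT list cut to the KO length. Leaving out scores below 7 removes a larger share of KO than of WT peaks on other chromosomes too. WT H3K27me3 peaks shared with KO were 2.16% at 50% overlap and 2.05% without scores below 7, and WT EZH2 peaks on H3K27me3 15.1% at 50% overlap. Bins with fewer H3K27me3 peaks in KO numbered 188 at 25 kb and 67 at 100 kb, and for EZH2 55 at 100 kb; the number of bins itself changes with their size. H3K27me3 marked 2 ends in KO and 6 in WT with 2 kb, 8 in KO with 10 kb and 1 in KO without scores below 7; EZH2 marked 3 in KO and 5 in WT with 2 kb, and 1 in KO without scores below 7. At a ratio threshold of 0.33, 198 of 1331 genes (H3K27me3) and 83 of 431 (EZH2) were at or below it. Among the 8 genes these were 6 of 7 and 6 of 8, so not all of them passed. With at least 20 peaks, 191 and 44 of all genes were at or below 0.5, and 7 of 7 and 4 of 4 of the 8 genes. The share of all genes was not computed for that setting. The H3K27me3 ratio by segment, with MAGI2 left out after seeing the data, was 0.142 to 0.300. No result changed direction under the settings run. The cause of these shifts was not tested. No paired analysis was possible because each group has 1 library. Read depth, and whether a score means the same in KO and WT, limit every ratio.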

Other observations

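Among 177 other genes with at least 50 H3K27me3 and 10 EZH2 peaks, and a peak in every list, the gene whose pair of KO/WT ratios was most like that of the 8 genes together was LGR5, a stem cell receptor gene on chromosome 12. It had 7 H3K27me3 peaks in KO and 43 in WT, and 4 and 18 EZH2 peaks, at a Euclidean distance of 0.19 between pairs of log2 ratios. The next was CDK14, a kinase gene on chromosome 7, with 8 and 85, and 4 and 27, at a distance of 0.84. Among other long genes of chromosome 7, RELN, which encodes a secreted guide of migrating neurons, had 0 H3K27me3 peaks in KO and 28 in WT. BBS9 and CALD1 also had 0 in KO, with 27 and 14 in WT. At the other extreme, COL26A1 had 14 in KO and 6 in WT, PRKAG2 7 and 5, and CHN2 105 and 101.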
